A study of Mus musculus with 10 samples.

Results

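The light response that was still present in CLN3-deficient mouse retina when minocycline had been given was taken as the difference between the Cln3 delta ex7/8 arrays labelled light plus Minocycline and those labelled no light. These are 4 of the 10 arrays, 2 per group, compared across all 19505 measured genes. Of these, 735 genes were higher and 1314 lower than in unexposed Cln3 delta ex7/8 retina, which is 3.77% and 6.74% of the genes tested (limma, Benjamini-Hochberg adjusted p under 0.05; such genes are called here). The genes that fell included 8 of 25 subunits of mitochondrial respiration and 7 of 13 heat shock genes. Also lower were 6 of 18 genes of cholesterol synthesis and 5 of 30 rod genes. Over these 4 lists the median of minocycline minus vehicle was 0.03 to 0.24 on the log2 scale. All 30 rod genes and 23 of the 25 respiration subunits lie in the highest of 4 bins by unexposed level. In that bin 15.3% of genes fell, and the rod count is close to this share. Mt1, Mt2, Cfp, Cln6, Per2 and Per3 were called higher. Of 51 genes that interferon switches on, 3 were called with minocycline (13 were higher before adjustment) and 46 with vehicle, and the 2 minocycline retinas differed widely in them.

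Total retinal RNA of mice aged 8 to 10 weeks was hybridised to Affymetrix Clariom S arrays, 1 array per sample in biological duplicate. The Cln3 delta ex7/8 strain carries a germline deletion in Cln3 that models juvenile neuronal ceroid lipofuscinosis, so every cell of the mouse carries it, and all mice of the study have a light-sensitive Rpe65 variant. Unexposed Cln3 delta ex7/8 mice were not exposed to bright light, and 16 h of dark adaptation was taken to hold for them too. The light plus Minocycline mice were dark-adapted for 16 h, their pupils were dilated, and the protocol of the therapy experiment gives 10000 lux for 30 min, while the labels of these arrays give no dose. Minocycline, a tetracycline antibiotic that lowers microglial activation, was injected intraperitoneally at 45 mg/kg in 0.9% NaCl from the day before light and daily afterwards. The light plus vehicle mice received 0.9% NaCl in its place. Unexposed mice are not labelled as injected, so light, injection and drug cannot be told apart in the difference between minocycline plus light and no light. Wild-type mice, without light or with high light of 15000 lux for 60 min, gave a light effect in arrays that share no sample with this difference. The strain label of the wild-type mice is Balb/c, whereas the treatment protocol calls them littermates, and the time from light to sampling is not given for the arrays. The retina was bulk tissue, so fewer cells of a type and less RNA per cell cannot be told apart.

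Intense light damages photoreceptors, and dying photoreceptors release signals to which microglia and Müller glia respond. Reactive retinas usually switch on interferon-stimulated genes, complement, antigen presentation and metallothioneins, while photoreceptor genes fall. CLN3 is a lysosomal membrane protein, and its loss leads to storage material in neurons and to early loss of vision.

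The deposited log2 values ran from 2.70 to 19.5, array medians lay between 7.14 and 7.25, and arrays within a group had Pearson correlations over clusters of 0.989 to 0.994, of which the minocycline pair had the lowest. The interquartile range of the values was 5.71 and 5.64 on the unexposed arrays, 5.41 on both minocycline arrays, and 5.31 and 5.29 on the vehicle arrays, so the spread of levels within an array narrowed with light. The Y-linked transcript Eif2s3y was at 12.96 and 3.07 on the minocycline arrays, at 3.04 and 2.79 on the unexposed arrays, at 12.63 and 12.58 on the vehicle arrays, at 11.76 and 11.49 in unexposed wild type, and at 3.24 and 3.07 in wild type after light. Among the 4 arrays compared, Y-linked transcripts were thus high on minocycline 1 and low on the other 3. The vehicle and the wild-type light comparisons each set arrays high in them against arrays low in them, so light and the presence of Y-linked transcripts cannot be told apart there. A covariate for these transcripts rests on the minocycline pair alone, the only group that holds both kinds. With it, limma called 0 genes higher and 0 lower for vehicle plus light (1253 and 1797 at an unadjusted p under 0.05), against 1282 and 2152 without it, and 407 and 622 in wild type, against 2044 and 3037. Replicates 1 and 2 are only names in accession order. Cln3 itself was at 9.14 and 9.18 on the unexposed arrays and 10.18 and 9.40 on the minocycline arrays, and since the exons its probes cover are not known here, it does not check the genotype.

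Genes that rose with minocycline plus light had a median log2 fold change of 1.07, and genes that fell one of -1.02, while the median over all genes was -0.015 and the median standard error 0.24. Before adjustment, 1989 genes were higher and 3115 lower at a p under 0.05. Levels in the unexposed retina differed between both sets. The median unexposed level was 9.52 for genes that rose, 10.98 for genes that fell and 7.43 over all genes. When genes were split by unexposed level into 4 bins of nearly equal size, in the highest bin 282 of 4871 genes rose (5.79%) and 745 fell (15.3%), and the median log2 fold change was -0.25. In the lowest bin, 36 of 4878 rose and 4 fell. Falls were 64.1% of all calls on the deposited scale and 51.6% after quantile normalization of the arrays, where 817 genes were higher and 870 lower. Of the called genes, none turned its sign under quantile normalization.

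The counts depended on single arrays. Leaving out unexposed array 1 left 59 higher and 27 lower genes, and leaving out unexposed array 2 left 136 and 212. Leaving out minocycline array 1, the only one of the 4 with Y-linked transcripts, gave 369 higher and 431 lower genes. Without minocycline array 2 there were 557 and 737. In these fits the lone sample is assumed to vary like the other groups. In all 4 of them, 52 of the 735 higher genes and 19 of the 1314 lower genes were called in the same direction. They included Masp2, Mbd6, Tgfbr3l, Ddit4, Ppp1r3a, Anp32e, Zfp606, Pnmal1 and Mis12, but neither Egr1 nor Irf7.

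Among the largest rises were an immediate early transcription factor, a complement protease, a prostaglandin enzyme, an interferon regulator and several genes of the pigment epithelium. Egr1, a zinc-finger factor that neurons induce within minutes of stimulation, was at 8.66 and 8.43 without light, at 13.70 and 11.14 with minocycline plus light, and at 13.87 and 13.32 with vehicle plus light. Both minocycline arrays were above both unexposed arrays and minocycline 1 was as high as the vehicle arrays. Its log2 fold change was 3.88 (95% interval 2.49 to 5.27, limma adjusted p = 0.00634). Masp2, the serine protease that starts the lectin pathway of complement, was at 8.54 and 7.03 without light and at 11.43 and 11.18 with minocycline, and lay between these at 9.58 and 9.86 with vehicle. It rose by 3.52 on the log2 scale with minocycline (2.56 to 4.48, adjusted p = 0.00293). In the direct comparison of minocycline with vehicle it was 1.59 higher (0.62 to 2.55), which was not called (adjusted p = 0.446). In wild type the log2 fold change of Masp2 with light was 0 (adjusted p = 1).

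Mbd6 and Tgfbr3l had among the smallest errors of the large rises. Mbd6, of the methyl-CpG-binding domain family, was at 8.74 and 8.78 without light, 11.73 and 11.19 with minocycline, and 11.37 and 11.55 with vehicle. The minocycline and vehicle arrays overlapped and all 4 lay above the unexposed pair. Mbd6 rose by 2.70 on the log2 scale (2.21 to 3.19, adjusted p = 0.000784), and the difference between minocycline and vehicle was 0 with a 95% interval of -0.49 to 0.49. In wild type it rose by 1.97 (adjusted p = 0.000788). Tgfbr3l, a relative of the type III TGF-beta receptor, was at 11.10 and 11.16 without light, 13.49 and 13.91 with minocycline, and 13.20 and 13.11 with vehicle. It rose by 2.57 (2.03 to 3.11, adjusted p = 0.000784), and by 1.24 in wild type (adjusted p = 0.00524). Both genes kept their separation from the unexposed arrays on every light-exposed Cln3 delta ex7/8 array.

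Ptgds, Kcnj13, Rdh5, Optc and Ttr were highest on minocycline 2. Ptgds, which makes prostaglandin D2, was at 12.31 and 11.90 without light and at 14.17 and 16.44 with minocycline (log2 fold change 3.20, adjusted p = 0.0201). Kcnj13, a potassium channel of the pigment epithelium, was at 10.28 and 9.44 without light and at 11.97 and 13.68 with minocycline (2.97, adjusted p = 0.0095). Rdh5, a retinol dehydrogenase of the visual cycle in pigment epithelium, was at 6.76 and 6.87 without light and at 8.67 and 10.37 with minocycline (2.71, adjusted p = 0.00794). In each of these the second minocycline array was the higher one by over 1 log2 unit. Optc, a vitreous matrix protein made by the ciliary body, followed the same order, with 7.59 and 5.75 without light and 8.13 and 10.73 with minocycline (2.76, adjusted p = 0.0389), and its values with vehicle, 6.63 and 7.09, lay within the unexposed range. Ttr, the thyroxine and retinol carrier, was at 12.60 and 11.86 without light, and at 14.12 and 15.62 with minocycline (2.64, adjusted p = 0.0166). Rdh5 and Ttr belong to a list of 15 pigment epithelium genes, of which vehicle plus light had 0 called higher and 1 lower (list median 0.025). All 15 had a higher mean with minocycline than with vehicle (median difference 1.89). Of these, 9 had an unadjusted limma p under 0.05 and 0 were called. A rise of this list after light was thus not seen with vehicle.

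**Figure D1:**
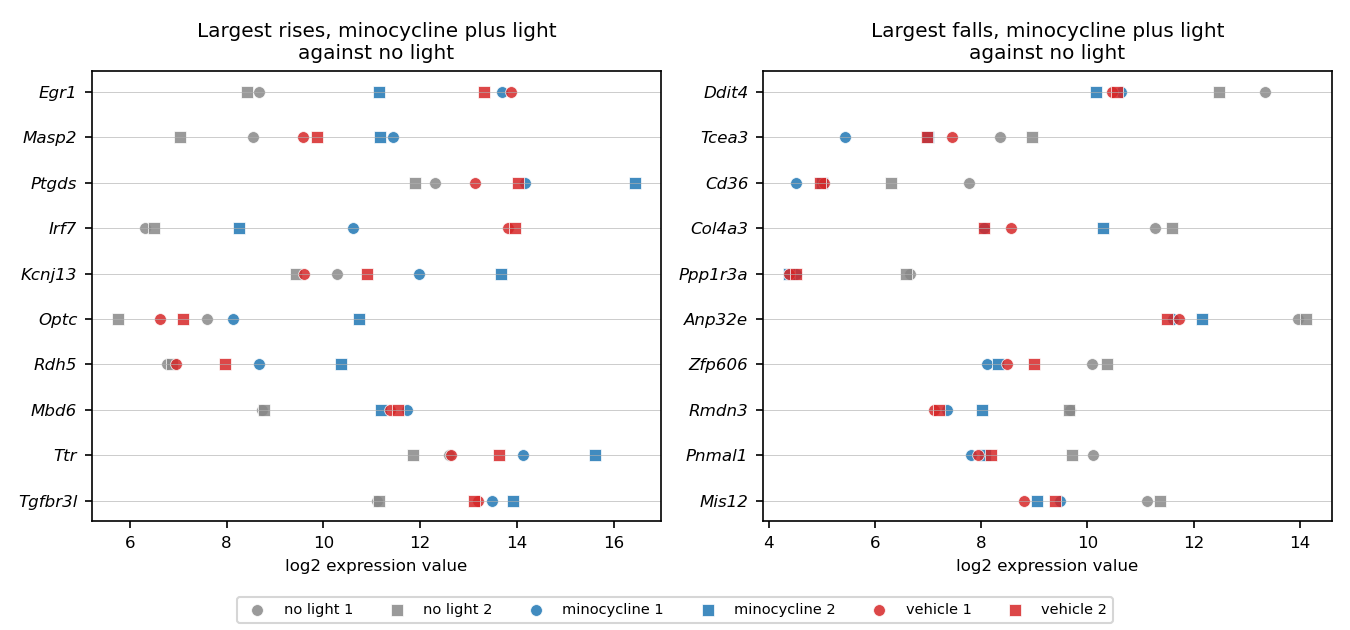
Log2 expression value on each of the 6 Cln3 delta ex7/8 arrays (circle, replicate 1; square, replicate 2) for the 10 largest rises (left) and the 10 largest falls (right) of minocycline plus light against no light. For Mbd6 and Tgfbr3l the minocycline and vehicle arrays lie close together, for Irf7 the minocycline arrays lie between, and for Kcnj13, Optc and Rdh5 minocycline 2 stands above every other array.

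Among the largest falls were a stress-induced mTOR inhibitor, a glycogen-targeting subunit and a histone chaperone, each at similar levels with both injections. Ddit4, an inhibitor of mTOR complex signalling that stress and glucocorticoids induce, was at 13.34 and 12.48 without light, 10.63 and 10.17 with minocycline, and 10.46 and 10.55 with vehicle. The 4 light-exposed arrays lay close together and well below the unexposed pair. Ddit4 fell by 2.51 on the log2 scale with minocycline (-3.25 to -1.77, adjusted p = 0.00361), and by 2.78 in wild type (adjusted p = 0.000857). Ppp1r3a, which targets protein phosphatase 1 to glycogen, was at 6.67 and 6.58 without light, 4.51 and 4.38 with minocycline, and 4.39 and 4.52 with vehicle (-2.18, -2.63 to -1.73, adjusted p = 0.000784). Its minocycline and vehicle values overlapped, with a difference of -0.01 (-0.46 to 0.44). In wild type the fold change was -0.34 and not called (adjusted p = 0.25). Anp32e, a chaperone that removes the histone variant H2A.Z, was at 13.96 and 14.12 without light, 11.61 and 12.15 with minocycline, and 11.72 and 11.50 with vehicle (-2.16, -2.71 to -1.61, adjusted p = 0.00178).

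Other large falls were less even between arrays. Tcea3, a transcription elongation factor, was at 8.35 and 8.96 without light and at 5.44 and 7.0 with minocycline (-2.44, adjusted p = 0.007). Cd36, a fatty acid and scavenger receptor, was at 7.77 and 6.31 without light and at 4.51 and 5.01 with minocycline (-2.28, adjusted p = 0.0104). Col4a3, a chain of basement-membrane collagen, was at 11.27 and 11.59 without light and at 8.05 and 10.30 with minocycline (-2.26, adjusted p = 0.0281). In these 3 genes the arrays within a group lay far apart, but the groups did not overlap. The remaining members of the 10 largest falls were Zfp606, a zinc-finger protein, Rmdn3, a tether of mitochondria to endoplasmic reticulum, Pnmal1, and Mis12, of the kinetochore, with log2 fold changes of -2.01 to -1.97.

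Interferon-stimulated genes were mostly not called with minocycline. With vehicle plus light, 46 of 51 members rose against a background of 6.57% of all genes called higher in that comparison (11.0% were called lower), with a median log2 fold change of 3.12. With minocycline plus light, 3 of 51 rose and none fell, against 3.77% of all genes, and the median was 0.81 beside -0.015 for all genes. There 46 of the 51 had a positive fold change, and 13 were higher and 0 lower at an unadjusted limma p under 0.05. By that rule 1989 of all 19505 genes were higher with minocycline plus light. Both comparisons share the unexposed arrays. With the covariate for Y-linked transcripts, 0 members were called with vehicle, 24 were higher before adjustment and the median was 1.13, while with minocycline 0 were called higher and 1 lower. When minocycline was compared directly with vehicle, all 51 members had a lower mean with minocycline (median -2.29), and 47 had an unadjusted limma p under 0.05, where 3.76% of all genes were lower and 2.78% higher by that rule. After adjustment over all genes, 1 member remained, Iigp1, an interferon-inducible GTPase. It was at 4.86 and 4.75 without light, 4.97 and 4.86 with minocycline, and 6.97 and 7.44 with vehicle (minocycline minus vehicle -2.29, adjusted p = 0.0119). For Iigp1 the minocycline arrays lay at the unexposed level and apart from the vehicle arrays.

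The 3 interferon genes called with minocycline were Irf7, Mx2 and Lgals3bp. Irf7, the transcription factor that amplifies type I interferon, was at 6.32 and 6.51 without light, 10.61 and 8.26 with minocycline, and 13.82 and 13.96 with vehicle. The groups did not overlap, and the minocycline arrays lay between. Irf7 was 3.02 above the unexposed level on the log2 scale with minocycline (1.67 to 4.37, adjusted p = 0.0137), and 4.46 below vehicle (-5.81 to -3.10, adjusted p = 0.0654, not called). In wild type it rose by 1.96 with high light (adjusted p = 0.0371). Mx2, an antiviral GTPase, was at 6.05 and 6.07 without light, 8.33 and 7.07 with minocycline, and 9.76 on both vehicle arrays (1.64 above unexposed, adjusted p = 0.0184). Lgals3bp, a secreted galectin-binding protein, was at 6.37 and 6.82 without light, 9.32 and 7.95 with minocycline, and 11.10 and 10.39 with vehicle (2.04 above unexposed, adjusted p = 0.0206). All 3 genes were lower on minocycline 2 than on minocycline 1.

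The 2 minocycline retinas disagreed over this group. The mean over the 51 members, relative to the unexposed pair, was 1.80 on minocycline 1 and 0.00 on minocycline 2, against 3.05 and 3.11 on the vehicle arrays. On minocycline 1, 49 of 51 members were higher than on minocycline 2, by a median of 1.54. Ifit1, which binds foreign RNA caps, was at 5.76 and 6.0 without light, 9.53 and 5.55 with minocycline, and 11.74 and 12.57 with vehicle, so that minocycline 2 lay below both unexposed arrays (log2 fold change 1.66, adjusted p = 0.277). Leaving out minocycline 2 raised the number of members called from 3 to 29, and leaving out minocycline 1 took it to 0 with 1 member called lower. Minocycline 1 was also the array with Y-linked transcripts and with the higher lens transcripts given further on, and whether these had a part in the difference was not tested.

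**Figure D2:**
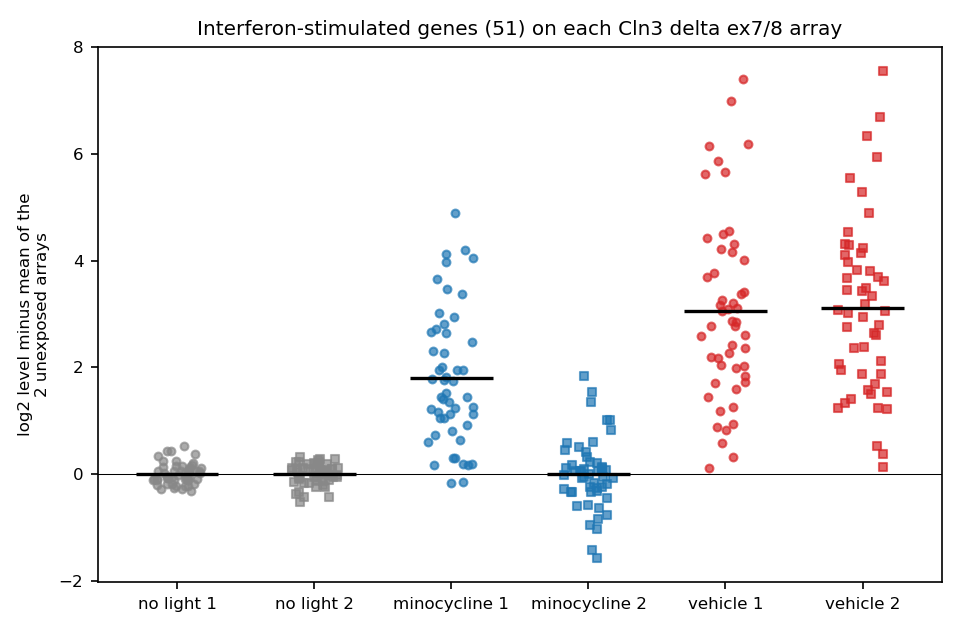
Log2 level of each of 51 interferon-stimulated genes minus the mean of the 2 unexposed arrays, on the 6 Cln3 delta ex7/8 arrays, with the mean over genes as a bar. The bars stand at 1.80 for minocycline 1, 0.00 for minocycline 2, and 3.05 and 3.11 for the vehicle arrays.

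Promoter windows of Ifit1 and Irf7, 250 bases before to 50 after the gene start in RefSeq's annotation of GRCm38.p6, are shown because they are an interferon gene that minocycline 2 held at the unexposed level and the one with the largest called rise. Capitals mark the interferon-stimulated response element core GAAANNGAAA on either strand. Ifit1 lies at chr19:34640639-34640938 on the plus strand and Irf7 at chr7:141266375-141266674 on the minus strand.
Ifit1: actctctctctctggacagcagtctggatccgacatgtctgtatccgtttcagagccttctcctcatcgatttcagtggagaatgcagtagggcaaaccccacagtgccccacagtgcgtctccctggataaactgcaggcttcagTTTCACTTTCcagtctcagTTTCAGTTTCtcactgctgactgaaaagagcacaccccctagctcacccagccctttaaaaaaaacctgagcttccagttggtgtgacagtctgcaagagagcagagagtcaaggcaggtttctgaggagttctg
Irf7: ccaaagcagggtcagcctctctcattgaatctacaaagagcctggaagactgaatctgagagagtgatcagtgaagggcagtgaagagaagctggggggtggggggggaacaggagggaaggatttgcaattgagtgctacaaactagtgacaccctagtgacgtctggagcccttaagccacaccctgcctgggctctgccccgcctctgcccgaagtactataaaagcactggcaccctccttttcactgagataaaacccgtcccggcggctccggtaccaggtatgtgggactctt
The Ifit1 window held 2 such cores, starting at -104 and -85 counted from the gene start, and the Irf7 window held none of these letters. Over all measured genes with a promoter in the table, 3.35% of 19143 windows held the core, as did 19 of 46 windows (41.3%) of the interferon list, 3.59% of those of the 735 higher genes and 2.46% of those of the 1314 lower genes.

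Antigen presentation, complement and microglial genes had few calls with minocycline. Of all genes, 3.77% were called higher with minocycline and 6.57% with vehicle, so 0 called in lists this small is near the share of all genes. With the covariate for Y-linked transcripts, 0 genes were called with vehicle. None of 14 class I antigen presentation genes was called with minocycline (median 0.35), whereas 11 rose with vehicle (median 2.01), and 12 were lower with minocycline than with vehicle before adjustment and 0 after it. Of 26 genes of reactive microglia and macrophages, 0 were called with minocycline (median 0.59, 3 higher before adjustment) and 13 with vehicle (median 1.45). In the direct comparison 12 of the 26 were lower with minocycline than with vehicle before adjustment and 0 after it. None of 15 homeostatic microglia genes was called with minocycline (median 0.48), against 6 with vehicle. Of 22 cytokines and chemokines, 0 were called with minocycline and 5 with vehicle. Compared directly with vehicle, 3 homeostatic microglia genes and 5 cytokines and chemokines were lower with minocycline before adjustment, and 0 after it. As for interferon genes, the list means were higher on minocycline 1 than on minocycline 2, at 1.15 and 0.29 above unexposed for reactive microglia and 1.05 and -0.31 for class I genes.

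A few immune genes did rise. Cfp, or properdin, which stabilises the alternative complement convertase, was at 9.38 and 9.23 without light, 11.01 and 10.68 with minocycline, and 10.80 and 10.96 with vehicle. The 4 light-exposed arrays overlapped and all lay above the unexposed ones (1.54, 0.97 to 2.11, adjusted p = 0.00717), and minocycline differed from vehicle by -0.04 (-0.61 to 0.54). Cfp was the 1 of 15 complement genes called with minocycline, against 9 with vehicle, and the list median was 0.78. The call of Cfp was not kept in every fit that left out 1 of the 4 arrays. H2-Aa, a class II antigen-presenting chain, was at 5.91 and 5.93 without light, 7.18 and 6.60 with minocycline, and 7.70 and 8.21 with vehicle (0.97, adjusted p = 0.0326). Of the 10 genes the study followed by other measurements that were examined here, Irf7 was called. Aif1, the microglial marker Iba1, was at 6.17 and 6.93 without light, 8.60 and 6.5 with minocycline, and 9.56 and 9.69 with vehicle (1.00, adjusted p = 0.466). Ccl2, Il1b, Tnf, Tspo, Wfdc17, Gfap, Apod and Zbp1 had log2 fold changes from -0.79 to 0.59, none of them called.

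Glial genes were not called with minocycline. None of 24 genes of reactive Müller glia and astrocytes was called with minocycline (median 0.53), while 9 were with vehicle (median 0.97). Of all genes, 3.77% were called higher with minocycline and 6.57% with vehicle, so 0 of 24 is near the share of all genes. In the direct comparison 5 of the 24 were lower with minocycline than with vehicle before adjustment and 0 after it. Lcn2, lipocalin 2, an iron-carrier binding protein of reactive astrocytes, was at 8.65 and 8.40 without light, 11.32 and 9.67 with minocycline, and 14.92 and 14.20 with vehicle. The groups did not overlap, but the rise of 1.97 with minocycline was not called (0.08 to 3.86, adjusted p = 0.174). Nor was the difference of -4.07 from vehicle (adjusted p = 0.185). None of 15 homeostatic Müller genes was called with minocycline.

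The rod genes that were called were all lower. Of 30 rod genes, 5 fell with minocycline and none rose, the median log2 fold change was -0.42, and 29 had a negative one. With vehicle 13 fell (median -0.72), and in wild type with the stronger light 18 fell (median -0.83), where 15.6% of all genes were called lower and 10.5% higher. All 30 rod genes lay in the highest bin by unexposed level, in which 15.3% of genes fell with minocycline. The 5 of 30 rod genes are close to this share. Relative to the unexposed pair, the mean over the list was -0.59 and -0.41 on the minocycline arrays and -0.86 and -0.68 on the vehicle arrays. Rod genes thus lay higher with minocycline than with vehicle in 28 of 30 cases by a median of 0.24, with 1 member past an unadjusted p of 0.05 and 0 after adjustment. The number of rod genes called was 3 after quantile normalization, where the median stayed negative at -0.27, and 0 to 2 when any 1 of the 4 arrays was left out.

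Nrl, the transcription factor that specifies rods, was at 15.61 and 15.47 without light, 13.99 and 14.25 with minocycline, and 13.71 and 14.19 with vehicle. The minocycline and vehicle arrays overlapped below the unexposed ones (-1.42, -2.04 to -0.80, adjusted p = 0.0127), and minocycline differed from vehicle by an interval of -0.45 to 0.79. Guca1b, a calcium sensor that drives rod guanylate cyclase, was at 16.87 and 16.60 without light, 15.27 and 15.73 with minocycline, and 14.94 and 14.99 with vehicle (-1.24, adjusted p = 0.0112). Here the minocycline arrays lay between, and the difference from vehicle had an interval of 0.01 to 1.06. Fscn2, an actin bundler of photoreceptors, fell by 1.25 (adjusted p = 0.0288) and Gucy2e, a guanylate cyclase of outer segments, by 1.05 (adjusted p = 0.0297). Cngb1, the beta subunit of the rod cyclic-nucleotide-gated channel, was at 13.57 and 13.86 without light, 12.15 and 12.31 with minocycline, and 11.49 and 11.46 with vehicle (-1.49, adjusted p = 0.0494). Its minocycline arrays lay above its vehicle arrays, a difference of 0.76 that was not called.

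The Cngb1 window is shown because it carries a repeated site for the photoreceptor factor CRX. It lies at chr8:95306536-95306835 on the minus strand, and capitals mark the CRX core TAATCC on either strand.
Cngb1: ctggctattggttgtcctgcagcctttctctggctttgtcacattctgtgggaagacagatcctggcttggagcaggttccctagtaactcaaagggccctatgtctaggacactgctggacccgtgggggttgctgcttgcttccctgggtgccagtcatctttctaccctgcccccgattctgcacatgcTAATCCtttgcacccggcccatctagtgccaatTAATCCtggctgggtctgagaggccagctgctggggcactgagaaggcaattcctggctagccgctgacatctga
It held 2 cores, at -58 and -25. Among other called rod genes, the Gucy2e window held 1 core and the Fscn2 and Nrl windows held 0. The core was in 11 of 25 rod windows (44.0%), in 6.4% of all windows, in 7.08% of windows of the lower genes and in 5.38% of windows of the higher genes.

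Some cone and ganglion cell genes fell, where 6.74% of all genes were called lower with minocycline. Of the cone genes 12 of 14, and of the ganglion cell genes 8 of 12, lie in the highest bin by unexposed level. In that bin 15.3% of genes fell and the median log2 fold change was -0.25. After quantile normalization the list medians were -0.08 for cone and -0.46 for ganglion cell genes. Of 14 cone genes 4 fell and 0 rose (median -0.20): Arr3, cone arrestin, by 1.46 (adjusted p = 0.0234), Kcne2, a potassium channel subunit, by 1.14 (adjusted p = 0.0282), Thrb, the thyroid hormone receptor that sets cone opsin identity, by 0.96 (adjusted p = 0.0237), and Gnat2, cone transducin, by 0.76 (adjusted p = 0.0292). With any 1 of the 4 arrays left out, 0 or 1 of the cone genes was called, the 1 without minocycline 2. Arr3 was at 14.72 and 15.01 without light, 13.61 and 13.21 with minocycline, and 13.80 and 13.33 with vehicle. Its minocycline and vehicle arrays overlapped below the unexposed pair. Of 12 ganglion cell genes, 3 fell with minocycline and 6 with vehicle, with medians of -0.56 and -0.71, and the 3 became 0 without either unexposed array. Nefh, the heavy neurofilament chain, was at 12.11 and 12.08 without light, 10.73 and 10.30 with minocycline, and 10.94 and 10.56 with vehicle (-1.58, adjusted p = 0.00783). Slc17a6, the vesicular glutamate transporter of ganglion cells, was at 12.19 and 12.25 without light, 10.65 and 10.81 with minocycline, and 10.21 and 10.67 with vehicle (-1.49, adjusted p = 0.00677). Both genes lay clear of the unexposed arrays on all 4 light-exposed arrays. Nefm, the medium neurofilament chain, fell by 0.87 (adjusted p = 0.0368).

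Few bipolar, amacrine and horizontal cell genes were called, where 3.77% of all genes were called higher and 6.74% lower. Of the bipolar genes 14 of 16, and of the amacrine and horizontal cell genes 10 of 16, lie in the highest bin by unexposed level. In that bin 5.79% of genes rose and 15.3% fell. The counts are near these shares and are not read as a change of either list. Trpm1, the cation channel of ON bipolar cells, was at 15.51 and 15.74 without light and at 16.92 and 16.38 with minocycline (1.03, adjusted p = 0.0374) and was the 1 of 16 bipolar genes called. Onecut2, a transcription factor of horizontal cells, rose by 1.31 (adjusted p = 0.02), while the enzymes of GABA synthesis Gad1 and Gad2 fell by 0.93 and 0.92 (adjusted p = 0.0405 and 0.0492). The other 13 of 16 amacrine and horizontal cell genes were not called, and the median was 0.

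Several subunits of mitochondrial respiration fell. Of 25 nuclear-encoded oxidative phosphorylation subunits, 8 fell with minocycline, 0 rose and 24 had a negative fold change (median -0.60, and -0.45 after quantile normalization, where 4 were called). With vehicle 11 fell (median -0.61), and in wild type 16 fell (median -0.91). The 8 became 0 without unexposed 1, 3 without unexposed 2, 2 without minocycline 1 and 6 without minocycline 2. Of the list, 23 members lay in the highest bin by unexposed level, in which 15.3% of genes fell with minocycline, against 6.74% of all genes. Ndufs1, the iron-sulfur subunit of complex I, was at 12.77 and 12.74 without light, 10.58 and 11.25 with minocycline, and 10.45 and 10.66 with vehicle (-1.84, adjusted p = 0.00376). Sdha, the flavoprotein of complex II, was at 12.68 and 12.56 without light, 10.66 and 11.32 with minocycline, and 10.93 and 10.67 with vehicle (-1.63, adjusted p = 0.00634). In both genes the minocycline arrays spanned the vehicle arrays or overlapped them. Atp5c1, of the ATP synthase, fell by 1.08 (adjusted p = 0.015) and Atp5o by 0.96 (adjusted p = 0.0149), and Atp5a1, Ndufb8, Cox5a and Uqcrfs1 fell by 0.74 to 1.01. Minocycline and vehicle differed by a median of 0.03 over the 25 members, with 0 members past an unadjusted p of 0.05 in either direction.

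Mitochondrial ribosomal proteins were mixed, with 3 of 25 lower (Mrpl3, Mrps30 and Mrpl12) and 1 higher, against 6.74% and 3.77% of all genes. The higher one, Mrpl37, was at 9.84 and 9.61 without light and at 10.50 and 11.24 with minocycline (1.15, adjusted p = 0.0288).

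Heat shock genes had the largest share of members called lower among the 38 lists. Of 13, 7 fell with minocycline (median -0.78), 7 with vehicle (median -0.70) and 7 in wild type (median -0.77), and 0 rose in any of them. The shares of all genes called lower were 6.74%, 11.0% and 15.6% in these comparisons. Of the 13, 9 lie in the highest bin by unexposed level, in which 15.3% of genes fell with minocycline. Quantile normalization left 7 called with a median of -0.69, whereas leaving out 1 of the 4 arrays left 1 to 4. Hsph1, a nucleotide exchange factor for HSP70, was at 10.89 and 11.35 without light, 9.68 and 9.41 with minocycline, and 9.94 and 9.86 with vehicle. The minocycline arrays were the lowest and did not overlap the unexposed ones (-1.58, -2.12 to -1.03, adjusted p = 0.0057). Hspa5, the HSP70 of the endoplasmic reticulum known as BiP, was at 15.22 and 15.64 without light, 14.11 and 14.14 with minocycline, and 14.58 and 14.42 with vehicle (-1.31, adjusted p = 0.00717). Here too both minocycline arrays were below both vehicle arrays, though the difference of -0.38 was not called (adjusted p = 0.861). Hspa1a, the inducible HSP70, fell by 1.48 (adjusted p = 0.00616), and Hspb8, a small heat shock protein, by 1.10 (adjusted p = 0.0291). Hspa1b, Hsp90aa1 and Hsp90b1 were also lower.

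The Hsph1 window is shown because it is the listed heat shock gene with the smallest p. It lies at chr5:149636287-149636586 on the minus strand, and capitals mark the heat shock element GAANNTTCNNGAA on either strand.
Hsph1: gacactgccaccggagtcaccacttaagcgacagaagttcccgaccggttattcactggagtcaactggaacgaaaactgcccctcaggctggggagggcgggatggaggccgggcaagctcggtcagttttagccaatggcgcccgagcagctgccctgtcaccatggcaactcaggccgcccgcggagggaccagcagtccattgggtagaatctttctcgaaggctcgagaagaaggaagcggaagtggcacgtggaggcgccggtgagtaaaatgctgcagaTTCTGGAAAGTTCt
It held 1 element, starting 36 bases after the gene start. Elements of this form were in 0.533% of all windows, in 2 of 14 heat shock windows (14.3%), in 0.671% of windows of the lower genes and in 0.128% of those of the higher genes. Both of these heat shock windows belong to Hsph1, overlap, and hold the same element. Hsph1 was thus the only one of the 12 heat shock genes with a window that carried it.

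Of 18 genes of cholesterol synthesis, 6 fell and 0 rose (median -0.49, and -0.38 after quantile normalization, where 4 were called). With vehicle 9 fell (median -0.69) and in wild type 14 (median -0.95). With minocycline, 6.74% of all genes were called lower. Among the 18 genes, 9 lie in the highest bin by unexposed level, in which 15.3% of genes fell with minocycline. The 6 became 0 without either unexposed array, 2 without minocycline 1 and 3 without minocycline 2. Hmgcs1, which makes HMG-CoA, was at 14.87 and 14.83 without light, 13.55 and 13.76 with minocycline, and 13.41 and 13.45 with vehicle (-1.20, -1.66 to -0.73, adjusted p = 0.00821). The light-exposed arrays were over 1 log2 unit below the unexposed ones, and minocycline was above vehicle on both arrays by a difference whose interval, -0.24 to 0.69, includes 0. Stard4, a cholesterol transporter, fell by 1.40 (adjusted p = 0.0105), Msmo1, a sterol oxidase, by 1.37 (adjusted p = 0.0184) and Insig1, which retains the SREBP complex, by 1.22 (adjusted p = 0.0169). Fdps and Idi1, of the isoprenoid steps, were also lower. Abcg1, which exports cholesterol, was the 1 of 8 apolipoprotein and efflux genes called, at -0.80.

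The Hmgcs1 window is shown because its transcript is a classical target of sterol control. It lies at chr13:119690101-119690400 on the plus strand, with the sterol regulatory element core TCACNCCAC in capitals where it occurs on either strand.
Hmgcs1: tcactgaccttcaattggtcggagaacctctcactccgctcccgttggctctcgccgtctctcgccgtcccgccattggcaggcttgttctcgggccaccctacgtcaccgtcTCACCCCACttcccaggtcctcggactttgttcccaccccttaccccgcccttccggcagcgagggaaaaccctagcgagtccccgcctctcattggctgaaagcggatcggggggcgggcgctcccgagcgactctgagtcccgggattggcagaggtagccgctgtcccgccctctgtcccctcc
It held 1 core, at -137. The core was in 1 of 17 cholesterol windows (5.88%), in 1.22% of all windows, in 1.42% of windows of the lower genes and in 0.513% of those of the higher genes. That 1 cholesterol window is the one of Hmgcs1 shown, so no other listed cholesterol gene with a window carried the core.

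The metallothioneins Mt2 and Mt1 rose. Mt2, a zinc-binding thiol protein induced by metals, glucocorticoids and oxidants, was at 14.29 and 14.13 without light, 16.31 and 16.50 with minocycline, and 16.60 and 16.51 with vehicle. The 4 light-exposed arrays lay close together above the unexposed pair (2.20, 1.03 to 3.36, adjusted p = 0.0255), and minocycline differed from vehicle by -0.15 (-1.32 to 1.02). Mt1 was at 15.75 and 15.52 without light, 16.61 and 16.84 with minocycline, and 16.91 and 16.75 with vehicle (1.09, adjusted p = 0.0293). Both rose in wild type as well, Mt2 by 1.70 (adjusted p = 0.037) and Mt1 by 1.31 (adjusted p = 0.00657). Of the other 17 genes of the oxidative stress list, Srxn1, which repairs peroxiredoxins, fell by 1.05 and Sod2, mitochondrial superoxide dismutase, by 0.95, and the rest were not called. Without 1 of the 4 arrays, 0 or 1 of the 2 higher and 0 or 1 of the 2 lower members were called.

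The Mt2 window is shown as the promoter of the metallothionein with the larger rise. It lies at chr8:94172368-94172667 on the plus strand, and capitals mark the metal response element core TGCACNC on either strand.
Mt2: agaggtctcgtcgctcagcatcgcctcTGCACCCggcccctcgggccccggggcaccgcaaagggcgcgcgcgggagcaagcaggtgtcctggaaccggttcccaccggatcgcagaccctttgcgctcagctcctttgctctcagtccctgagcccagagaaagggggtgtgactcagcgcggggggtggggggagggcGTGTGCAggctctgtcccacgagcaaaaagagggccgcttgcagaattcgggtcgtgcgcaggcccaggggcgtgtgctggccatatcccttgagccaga
It held 2 cores, at -223 and -50. The core was in 12.6% of all windows, in 12.8% of those of the higher genes, in 12.5% of those of the lower genes and in 3 of 21 windows of the oxidative stress list.

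Lysosomal genes, of interest because CLN3 is a lysosomal protein, were called in both directions. Of 25, 3 rose and 2 fell (median -0.04, and 0.05 after quantile normalization, where 3 rose and 0 fell). The 2 lower members are close to the 6.74% of all genes called lower, and 14 of the 25 lie in the highest bin by level, where 15.3% fell. None of the 2 was called with any 1 of the 4 arrays left out, and the 3 higher members became 0 without either unexposed array, 1 without minocycline 1 and 4 without minocycline 2. Cln6, a membrane protein whose loss causes another form of ceroid lipofuscinosis, was at 12.26 and 12.05 without light, 13.46 and 13.28 with minocycline, and 13.66 and 13.47 with vehicle (1.22, 0.75 to 1.68, adjusted p = 0.0079). Its 4 light-exposed arrays lay close together, over 1 log2 unit above the unexposed ones. In wild type Cln6 moved by 0.29 (adjusted p = 0.33). Lamp2, a lysosomal membrane glycoprotein, was at 14.91 and 14.83 without light and at 16.23 and 15.74 with minocycline (1.12, adjusted p = 0.0166), and Mcoln1, a calcium channel of lysosomes, rose by 0.99 (adjusted p = 0.024). Ppt1, the thioesterase lacking in infantile ceroid lipofuscinosis, was at 11.64 and 11.59 without light, 10.73 and 10.75 with minocycline, and 11.04 and 10.67 with vehicle (-0.88, adjusted p = 0.0213). Cln8, a further ceroid lipofuscinosis gene, fell by 1.29 (adjusted p = 0.0409).

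**Figure D3:**
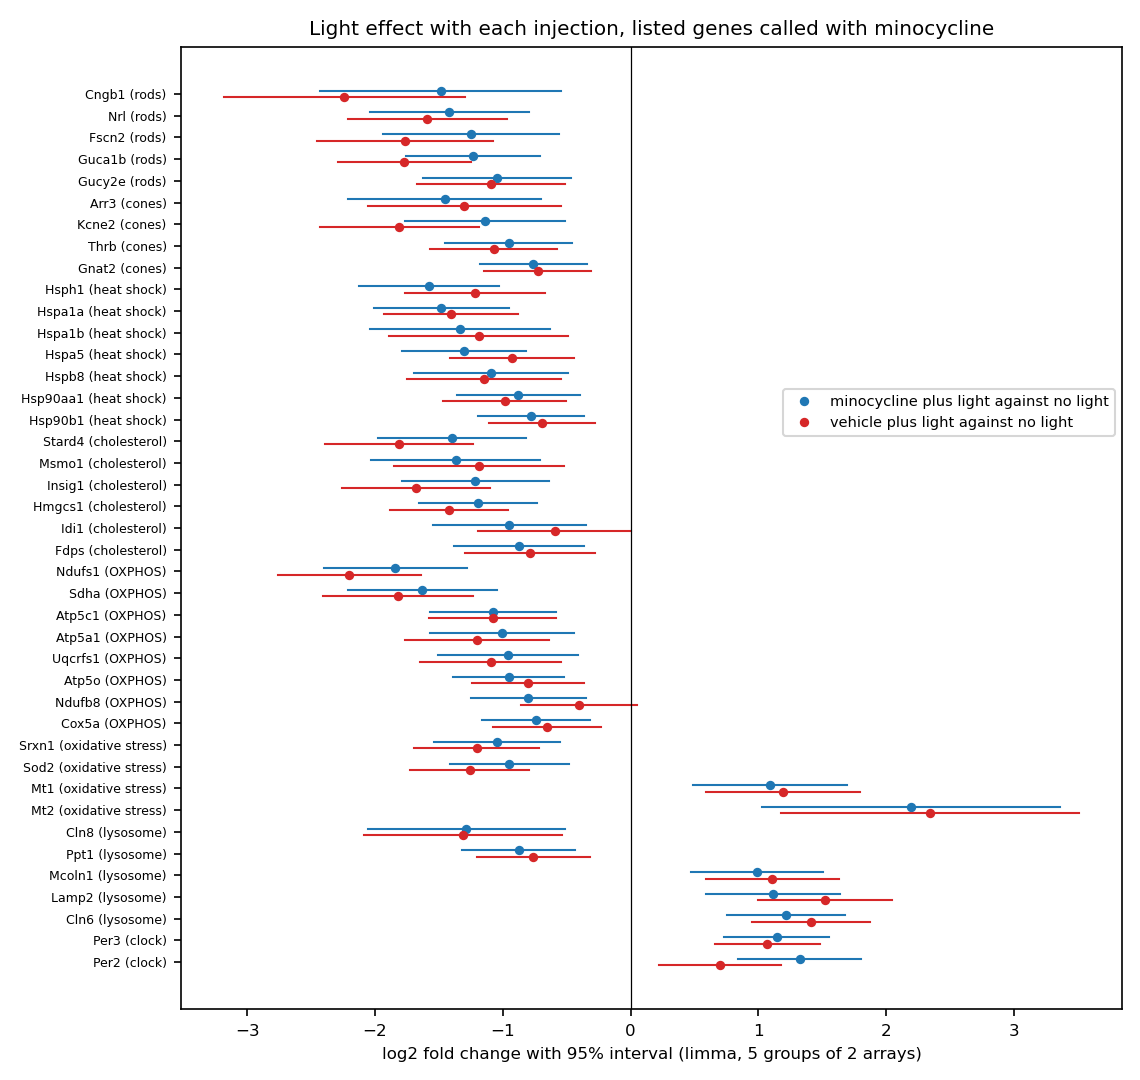
Log2 fold change with 95% limma interval of minocycline plus light (blue) and vehicle plus light (red) against the same 2 unexposed arrays, for members of 8 lists that were called with minocycline. Being chosen for the blue value, they show no test of the red one. The intervals of both injections overlap for each gene drawn. Since both rest on the same 2 unexposed arrays, this overlap is no test of minocycline against vehicle.

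Smaller groups held single changes. Of 15 clock genes 2 rose: Per3, a period repressor, was at 12 and 11.98 without light, 13.11 and 13.16 with minocycline, and 12.97 and 13.15 with vehicle (1.15, adjusted p = 0.00634), and Per2 rose by 1.33 (adjusted p = 0.00657). The Per3 arrays agreed closely within each condition, and the 2 calls were lost without either unexposed array. Both genes rose in wild type as well, Per3 by 1.03 (adjusted p = 0.00375) and Per2 by 1.69 (adjusted p = 0.00109). Of 20 immediate early genes, Egr1 and Fos were called. Fos was at 6.28 and 6.63 without light, 7.92 and 7.36 with minocycline, and 7.52 and 7.21 with vehicle (1.19, adjusted p = 0.0177). Cdkn1a, the p53-induced cell cycle inhibitor p21, was at 5.13 and 5.52 without light, 7.30 and 6.56 with minocycline, and 8.10 and 8.78 with vehicle, and was the 1 of 15 p53 targets that rose (1.61, adjusted p = 0.0228), while Ccng1 and Trp53inp1 fell. Of 16 cell death genes Bcl2l11 and Casp4 rose and Aim2 fell, and of 20 genes of the integrated stress response Ddit4 and Asns fell. Of 24 collagens and matrix glycoproteins 3 rose, Optc, Thbs1 (1.97, adjusted p = 0.0192) and Col6a1 (0.91, adjusted p = 0.0315), and 2 fell, Col4a3 and Fbln2 (-1.26, adjusted p = 0.00686). Of 16 cilium genes Ift122 and Tmem67 fell, and 10 of the 16 lie in the highest bin by unexposed level, in which 15.3% of genes fell. Beside the counts in these smaller groups, 3.77% of all genes were called higher and 6.74% lower. Such small counts are not read as changes of a whole list. Lists of T cells, B cells, neutrophils, endothelium, red blood cells and proliferation had 0 members called in either direction by limma, and 0, 0, 1, 2, 0 and 1 at an unadjusted p under 0.05.

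Transcripts of neighbouring tissues differed between arrays of a group. The mean over 15 pigment epithelium genes, relative to the unexposed pair, was 0.58 on minocycline 1 and 3.13 on minocycline 2, against -0.20 and 0.35 on the vehicle arrays. Rpe65, its retinoid isomerase, was at 7.52 and 7.73 without light and 7.89 and 11.62 with minocycline (2.13, adjusted p = 0.151), and Tyrp1, a melanin enzyme, was at 8.01 and 14.03 with minocycline. Of this list 3 genes were called higher (Rdh5, Ttr and Slc6a20a), 11 without minocycline 1 and 1 without minocycline 2. Kcnj13 and Ptgds, outside the list, followed the same order. Over 17 lens genes the mean was 1.93 on minocycline 1 and 0.11 on minocycline 2, and Crybb2 was the 1 member called (1.05, adjusted p = 0.0246). Over 12 skeletal muscle genes the unexposed arrays themselves stood at 1.74 and -1.74 around their mean and the minocycline arrays at -1.74 and -0.75. The part of these tissues in the calls was not tested.

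**Figure D4:**
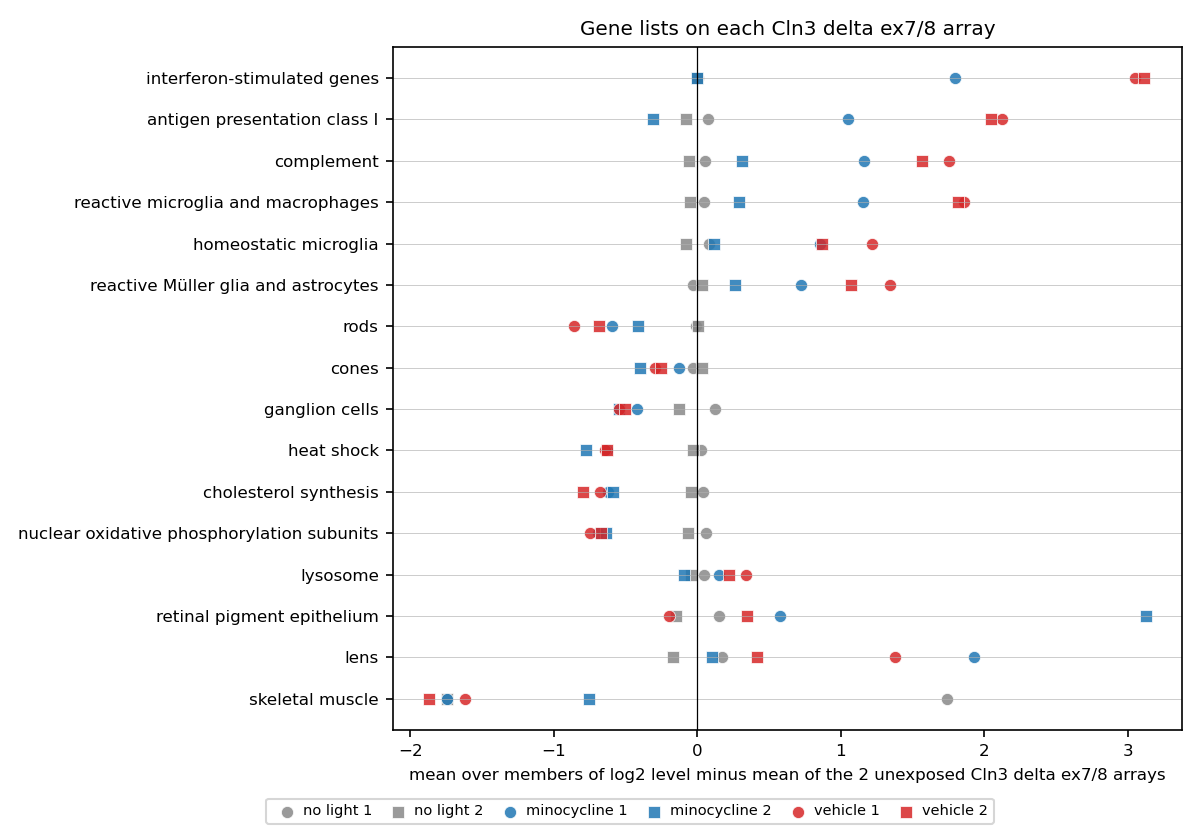
Mean log2 level over the members of 16 gene lists on each Cln3 delta ex7/8 array, minus the mean of the 2 unexposed arrays (circle, replicate 1; square, replicate 2). Heat shock, cholesterol and oxidative phosphorylation lists lie together below 0 on all 4 light-exposed arrays. The interferon list stands at 1.80 and 0.00 on the minocycline arrays and the pigment epithelium list at 0.58 and 3.13.

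Across all genes the direct comparison of minocycline with vehicle after light called 0 genes higher and 3 lower (0% and 0.0154% of genes, limma), with 543 and 734 at an unadjusted p under 0.05. Student's t-test on the same arrays called 0 in both directions after adjustment and 496 higher and 503 lower before it. The 3 lower genes were Iigp1, Gm4951 and Tgfbi. Gm4951 was at 3.70 and 4.16 without light, 4.81 and 4.06 with minocycline, and 6.94 and 7.28 with vehicle (minocycline minus vehicle -2.68, adjusted p = 0.0406). Tgfbi, a matrix protein induced by TGF-beta, was at 6.51 and 6.11 without light, 5.88 and 5.98 with minocycline, and 7.94 and 8.16 with vehicle (-2.12, adjusted p = 0.0406). In each of these 3 genes the vehicle arrays stood apart from the other 4. Leaving out minocycline 1 gave 135 lower and 59 higher genes, whereas without minocycline 2 or vehicle 1 no gene was lower. The 5 genes highest with minocycline by p, among them Car12, a carbonic anhydrase, Dgat1, of triglyceride synthesis, and Penk, the enkephalin precursor, had differences of 0.95 to 2.74 and none was called.

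Wild-type light effects came from other arrays and are set beside the effects that remained under minocycline. In wild type the light-exposed arrays were the ones low in Y-linked transcripts, and the part of this in the shared calls was not tested. Of the 735 higher genes, 413 were also called higher in wild type, which is 56.2% of the 735 and 20.2% of the 2044 genes called there. Of the 1314 lower genes, 1066 were called lower in wild type, which is 81.1% of the 1314 and 35.1% of 3037. None of the higher genes and 1 of the lower genes was called in the opposite direction. The wild-type fold change had the same sign for 93.6% of the higher genes and 99.2% of the lower genes, where 51.5% and 48.4% of all genes have that sign. Across 19505 genes both light effects correlated with Pearson's r of 0.663 and Spearman's rho of 0.658. Genes are not independent, the batches of the arrays are not given, and both effects share a narrower spread of levels after light.

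No gene had a light effect under minocycline that differed from the wild-type effect after adjustment (0% higher and 0% lower, limma, 1093 and 996 genes at an unadjusted p under 0.05, and 824 and 803 by the t-test before adjustment). This test could call little: for the Y-linked Uty an unadjusted limma p of 9.83e-05 became 0.227 after adjustment. The absence of calls therefore does not show that both effects are alike. The light doses differed, at 10000 lux for 30 min and 15000 lux for 60 min. Genotype differed as well, and the wild-type arrays are not labelled with an injection or the drug. Rod genes had the smaller fall under minocycline in 26 of 30 cases, by a median of 0.29, with 0 called. For interferon genes the median difference was 0.06, and 28 of 51 were more positive under minocycline. With the covariate for Y-linked transcripts that median turned to -2.46, with 7 interferon genes called lower.

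**Figure D5:**
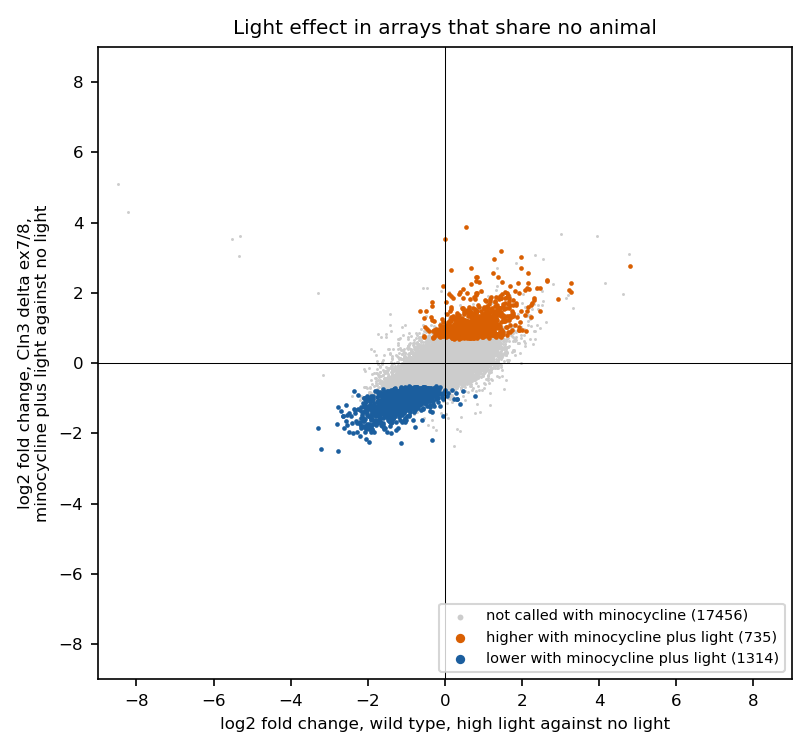
Log2 fold change of each of 19505 genes in wild type (high light against no light, x axis) and in Cln3 delta ex7/8 (minocycline plus light against no light, y axis). Orange points are the 735 genes called higher and blue points the 1314 called lower with minocycline plus light, of which 93.6% and 99.2% lie on the same side of 0 in wild type.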

How the data were processed

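Total retinal RNA of 10 mice was measured on Affymetrix Clariom S arrays, 2 arrays for each of 5 groups. Per the labels and the study's methods, the authors processed the scans with Affymetrix Expression Console, of which neither the version nor the algorithm is stated in those sources. What they deposited is 1 log2 value for each transcript cluster and array. The methods name another array type than the series record. The array medians agree closely, so the values had been brought to a common scale, and no further normalization was applied.

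Of 22206 clusters, 19572 were paired with 1 gene symbol by the annotation of the array, 0 with several, and 2634 had no entry. For 55 symbols with several clusters, the brightest on average was kept, giving 19505 genes with no filter on low values. Arrays give no counting depth, and their number limits the precision.

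Groups came from the sample labels. Differences were tested by limma (version 3.58.1 in R 4.3.3, lmFit then eBayes with no trend) with 1 mean per group, 1 spread shared by all 5 groups (11.49 degrees of freedom), and Benjamini-Hochberg adjustment over all genes at 0.05. The fit was tested on simulated data. Intervals are 95% limma intervals. With 2 arrays a side no exact permutation test of a single gene can reach 0.05. Biological duplicates were declared by the series record, but litters and batches are not given.

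Genes are named by a rule: the 10 largest called rises and falls without overlap between the arrays (predicted and Y-linked genes left out), up to 4 members of each of 38 gene lists with the smallest p, genes the study measured by other means, Cln3, Rpe65, and the 5 genes leading each direction of minocycline against vehicle. Other called list members and genes kept in every fit with 1 array left out are named too, chosen after their values were seen. Cd68 and Ctsd were not analysed here. The lists hold 666 genes, of which 620 were measured. The compared groups, the gene lists and the tests were chosen with earlier results of these data known.

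Alternatives were quantile normalization, centring on the array median, leaving out the 30% dimmest genes, a variance trend with robust fitting, a fit over the compared groups alone, Student's unpaired test, all clusters, thresholds on fold change (log2 of 1 or 2), Y-linked transcripts as a covariate, and leaving out each array. Promoter windows of 300 bases were found in RefSeq's GRCm38.p6 table for 15691 of the 19505 genes (19143 windows), and motifs were searched on both strands with overlaps allowed.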

Additional observations from a re-analysis of the deposited data

Results flagged for a closer look

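Transcript clusters without a gene symbol in the array's annotation were left out of every comparison by gene. In a fit over all clusters, 112 of these 2634 clusters were higher and 114 were lower with minocycline plus light than without light (limma, adjusted p under 0.05). They drew attention because they are a signal outside the genes described, and nothing more is known of them here.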

How the results depend on the processing

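For minocycline plus light against no light, counts of genes higher and lower stayed within 1.5 times of 735 and 1314 with centring on the array median, without the dimmest genes, with a variance trend, with the compared groups alone and with all clusters. Quantile normalization gave 870 lower genes, and 678 of the higher and 849 of the lower genes it called were the ones called on the deposited scale. Student's unpaired test gave 0 and 0 after adjustment. A log2 fold change of 2 with an unadjusted p gave 59 and 8, and one of 1 with an adjusted p 435 and 712. With Y-linked transcripts as a covariate there were 369 and 431, the same values as without minocycline 1, since within groups only the minocycline pair differs in these transcripts. Leaving out 1 array gave 59 to 557 higher and 27 to 737 lower genes. For minocycline against vehicle, higher genes were 0 except for 15 at a log2 fold change of 2 and 0 to 59 with 1 array left out. Lower genes numbered 2 with quantile normalization, 1 without the dimmest genes and with all clusters, 20 with a variance trend, 0 with the compared groups alone, with Student's test and with the covariate, 83 at a log2 fold change of 2 and 0 to 135 with 1 array left out. For the effect under minocycline minus the wild-type effect, higher genes numbered 4 with a variance trend, 16 with the covariate, 27 at a log2 fold change of 2 and 0 to 15 with 1 array left out. Lower genes numbered 8 with the covariate, 4 at a log2 fold change of 2 and 0 to 4 with 1 array left out. The cause of these changes was not tested.

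Of 82 named genes called, quantile normalization kept 67 calls, centring 81, the fit without minocycline 1 kept 37, without minocycline 2 52, without unexposed 1 11 and without unexposed 2 18, and no call was reversed. No paired analysis was possible because the labels give the groups no shared replicate numbers. Values near the lower end of the scale have no stated background, so whether a low gene was detected is not known, and 2 arrays a group limit the precision of every gene.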

Other observations

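Genes called in the same direction in all 4 fits that left out 1 of the compared arrays were not chosen by the naming rule, and are given as values. The 52 that rose included Agrn, the synapse-organising proteoglycan agrin (log2 fold change 2.29), Igfbp7, a secreted binding protein of insulin-like growth factors (2.46), Crtc3, a coactivator of CREB (2.27), Fbrs and Fbrsl1, a pair of related nuclear proteins (2.46 and 2.31), Nav1 and Nav2, neuron navigators (2.09 and 2.11), Cacna1b, a presynaptic calcium channel (1.95), Chd3, a chromatin remodeller (1.52), and Hdac7, a histone deacetylase (1.83). The 19 that fell included the HSP40 cochaperones Dnaja2 and Dnaja3 (-1.73 and -1.82), the HSP70 relative Hspa13 (-1.50), the proteasome subunit Psmd1 (-1.80), the splicing helicase Ddx23 (-1.78), the ATPase Ruvbl2 (-1.56), the nucleolar protein Krr1 (-1.47) and the retinol dehydrogenase Rdh14 (-1.40). Their limma adjusted p-values ran from 0.000784 to 0.00516.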
